A study of Mus musculus with 24 samples.

Results

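RNA levels of 10 genes that make, modify or transport the ceramides of the skin barrier were followed in unwounded skin and healing wounds of CD1 mice. The genes were taken by name from a table of 18368 genes. They were Sptlc3, Elovl4, Cers3, Degs2, Cyp4f39, Pnpla1, Nipal4, Abca12, Ugcg and Acer1. Degs2 was put on the list for its rise in wounds, which differed between sites in these same libraries. It was thus chosen by the measured wound differences, and its levels and changes are given as a description, with no test. The other 9 genes were tested in fits across the whole table.

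The 12 mice were 7 weeks old, with no genetic change named, and had been timed to the resting phase of the hair cycle. Each mouse gave tissue from a single site, the abdomen, back or cheek, with 4 mice per site. Abdomen and back mice received 2 excisional wounds of 2 mm and cheek mice 1 such wound. On day 3 the wound and neighbouring unwounded skin of the same mouse were taken with a 2 mm punch, which gave 24 libraries. Whether the 2 wounds of a mouse were pooled is not given in the sources used here. CD1 is an outbred stock, so mice differ in genotype, and a full-thickness punch mixes epidermis with dermis, hair follicles, fat and muscle. In such bulk samples, fewer cells of a type and less RNA per cell cannot be told apart.

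Ceramides are the main lipids between the dead cells of the outer skin layer, where they hold water in and keep microbes out. Keratinocytes build them from a sphingoid base and a very long fatty acid, add a terminal hydroxyl group and link linoleic acid to it. The resulting acylceramides are packed as glucosylceramides into lamellar granules, secreted, and processed outside the cell. Inherited loss of several of these genes causes ichthyosis, a scaling skin disease, and loss in mice often gives a leaky, lethal barrier defect. At day 3 a small wound is still closing under a tongue of migrating, stress-keratin-positive keratinocytes.

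Values are FPKM, which correct the fragments of a gene for its length and for the size of the library, so that levels can be compared between genes. They summed to between 490830 and 608888 per library. Wound punches held skin with wound-edge epidermis and white blood cells. The 3 wound-edge keratins (Krt6a, Krt6b, Krt16) all rose at each site, with median log2 rises of 6.15 at the abdomen, 7.59 at the back and 7.14 at the cheek, and their summed level ran from 58.5 to 196 FPKM in unwounded skin and from 1587 to 12649 FPKM in wounds. The 5 basal keratinocyte markers had median log2 differences of 0.08, 0.10 and 0.13, and the 9 suprabasal markers of -0.21, -0.27 and -0.09, in the same order. Krt14 rose among the basal and Krt1 among the suprabasal markers at each site, while Flg2 fell in abdomen and back wounds (log2 -1.53 and -1.70). In cheek wounds its difference of -1.41 narrowly missed the wound threshold of 0.001 (adjusted p = 0.0011 in limma's paired fit). All markers of both keratinocyte lists were above 0 in each group. The library of unwounded cheek from mouse 4 stood apart. Its 5 growing-hair-follicle keratins summed to 4310 FPKM, against 0.23 to 69.8 FPKM in the other unwounded libraries, although the mice were described as being in the resting phase. Without that mouse the mean change within cheek mice turned from -0.05 to 0.02 for Cyp4f39 and from 0.06 to -0.00065 for Nipal4, and kept its sign for the other 8 genes. Values of Degs2, Cers3 and Pnpla1, whose levels in that library lay above those of the other 3 unwounded cheek libraries, are given with and without it.

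Promoter sequences are shown for 3 genes, Degs2 because its range over libraries was the widest of the 10, and Elovl4 and Cyp4f39 because both were lower in cheek wounds than in abdomen wounds and hold the same short motif. They are RefSeq sequences on GRCm38.p6, up to 250 bases before the gene start, shortened where an exon would begin, and each is read 5′ to 3′ on its gene's strand. All 10 genes had an entry. Capitals mark the grainyhead-family core, AACCGG or its reverse complement CCGGTT. Degs2 lies on the minus strand (chr12:108702316-108702556), Elovl4 on the minus strand (chr9:83806306-83806555) and Cyp4f39 on the plus strand (chr17:32452473-32452696). No annotated exon overlapped these stretches.
Degs2: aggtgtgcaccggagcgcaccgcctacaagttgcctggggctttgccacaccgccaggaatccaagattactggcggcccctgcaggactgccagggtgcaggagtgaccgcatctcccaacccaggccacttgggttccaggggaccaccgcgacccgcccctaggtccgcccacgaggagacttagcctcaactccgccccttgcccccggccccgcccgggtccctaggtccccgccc
Elovl4: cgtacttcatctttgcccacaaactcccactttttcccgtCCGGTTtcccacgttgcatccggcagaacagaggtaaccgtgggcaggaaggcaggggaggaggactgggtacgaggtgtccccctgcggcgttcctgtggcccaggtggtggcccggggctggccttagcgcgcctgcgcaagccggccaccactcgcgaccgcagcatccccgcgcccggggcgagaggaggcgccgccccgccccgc
Cyp4f39: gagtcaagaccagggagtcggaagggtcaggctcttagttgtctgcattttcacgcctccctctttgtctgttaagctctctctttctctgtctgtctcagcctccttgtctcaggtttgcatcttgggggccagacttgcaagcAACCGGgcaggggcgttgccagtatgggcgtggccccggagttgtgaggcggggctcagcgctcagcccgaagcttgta

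The letter patterns searched on both strands of the 250 bases before each start were AP-1 (TGANTCA), the grainyhead core (AACCGG), a Krüppel-like factor motif (CCACCC), a nuclear receptor half-site (AGGTCA), the TATA box (TATAAA) and the CCAAT box (CCAAT). The grainyhead core lay in Elovl4 and Cyp4f39 and in 5.62% of 32851 promoters in the table, at base 41 and base 146 of the sequences above. The AP-1 pattern lay in 0 of the 10 and in 6.75% of all promoters, and the TATA box in 0 of the 10 and in 12.4%. CCACCC lay in 3 (Nipal4, Pnpla1 and Acer1) and in 28.1% of all, AGGTCA in 1 (Cers3) and in 14%, and CCAAT in 1 (Pnpla1) and in 33.8%. The Degs2 stretch held none of the 6 patterns. A match is only a match of letters, and says nothing of binding.

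Degs2, the desaturase and hydroxylase that turns dihydroceramide into phytoceramide, was far higher in wounds than in unwounded skin, and its site means, which were unlike in unwounded skin, lay close together in wounds, where single abdomen libraries spread widely. The gene lies at chr12:108686792-108702306 of GRCm38.p6. In unwounded abdomen skin mice 1 to 4 had 5.27, 8.76, 3.91 and 2.02 FPKM, and their wounds had 57.16, 38.93, 37.09 and 14.02 FPKM. In unwounded back skin the values were 1.5, 0.64, 1.3 and 0.66 FPKM, and in back wounds 32.22, 42.31, 31.57 and 37.05 FPKM. In unwounded cheek skin they were 7.14, 7.96, 14.93 and 24.74 FPKM, and in cheek wounds 29.94, 31.89, 34.80 and 38.05 FPKM. At each site the 4 wound libraries lay above the 4 unwounded ones. Back skin was low throughout, and among unwounded libraries that of cheek mouse 4 came closest to the wounds.

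The mean Degs2 level in unwounded skin was 4.99 ± 2.84 FPKM (SD, n = 4) at the abdomen, 1.03 ± 0.44 at the back and 13.7 ± 8.15 at the cheek. In wounds it was 36.8 ± 17.7, 35.8 ± 4.99 and 33.7 ± 3.54 FPKM. The order in unwounded skin was thus cheek, abdomen, back. All 4 back libraries lay below those of abdomen and cheek, and abdomen and cheek overlapped. In wounds the 3 sites overlapped. On the log2(FPKM + 0.5) scale, unwounded back differed from abdomen by -1.74 and cheek from back by 3.09, whereas in wounds the same differences were 0.11 and -0.08.

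Within mice, the log2 change of Degs2 was 2.76 ± 0.56 (SD, n = 4) at the abdomen, 4.61 ± 0.60 at the back and 1.43 ± 0.66 at the cheek, upward in 4 of 4 mice at each site. As a ratio of mean FPKM, wounds exceeded unwounded skin by 7.37-fold at the abdomen, 34.9-fold at the back and 2.46-fold at the cheek. These values chose the gene and support nothing further. The smallest change was in cheek mouse 4 (1.54-fold), the mouse whose unwounded library had growing follicle keratins and the highest unwounded Degs2. Without it, the unwounded cheek mean was 10.01 ± 4.28 FPKM (SD, n = 3) and the log2 change 1.71 ± 0.45. The ratio of means was then 3.22-fold and the unwounded difference of cheek from back 2.76. Unwounded back mouse 2, with the next highest sum of growing-follicle keratins (69.8 FPKM), had the lowest Degs2 of all libraries (0.64 FPKM). The abdomen wound with the lowest Degs2, of mouse 4, also had the lowest wound-edge keratin sum of all wounds (1587 FPKM), and that with the highest, of mouse 1, the highest sum (12649 FPKM). Back wounds showed no such order. Mouse 3 had the highest sum there (9320 FPKM) and the lowest Degs2 (31.57 FPKM), and mouse 4 the lowest sum (5077 FPKM) with 37.05 FPKM. Mouse 2 had the highest Degs2 (42.31 FPKM) with a sum of 7970 FPKM, and mouse 1 had 32.22 FPKM with 7644 FPKM. Among cheek wounds mouse 1 was lowest in both (3312 and 29.94 FPKM), but mouse 3 had the highest sum (10564 FPKM) and mouse 4 the highest Degs2 (38.05 FPKM). The part of these keratinocytes and of the growing follicles in the Degs2 levels was not tested.

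**Figure D1:**
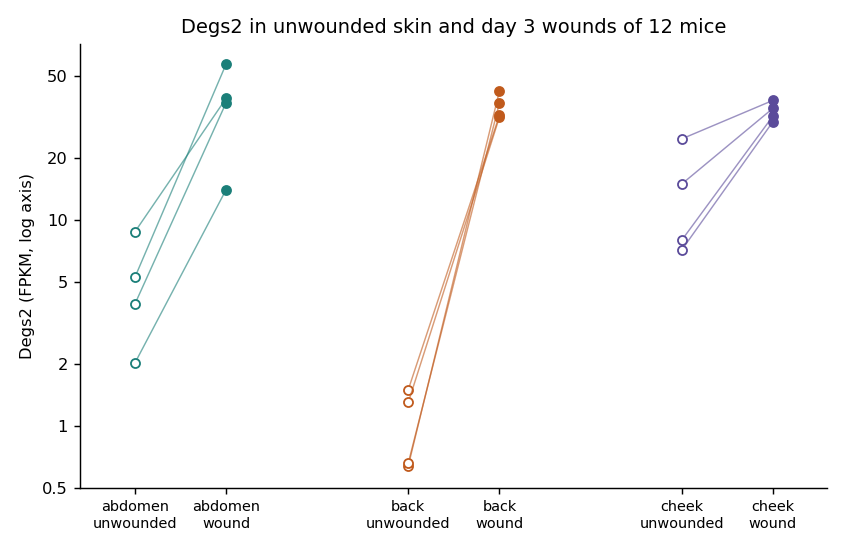
Degs2 level in FPKM on a log axis for 12 mice, with open circles for unwounded skin, filled circles for day 3 wounds and a line joining the libraries of a mouse. Unwounded libraries spread from 0.64 to 24.74 FPKM, and 11 of the 12 wounds sit between 29.94 and 57.16 FPKM, the exception being an abdomen wound at 14.02 FPKM.

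Degs1, the desaturase of ordinary ceramide synthesis in most cells, was the more abundant paralog in each group. Its mean level went from 84.8 ± 7.45 to 112 ± 12.8 FPKM at the abdomen, from 71.5 ± 12.0 to 121 ± 4.82 at the back and from 61.5 ± 8.34 to 96.8 ± 6.39 at the cheek (SD, n = 4). Degs1 rose in back wounds (log2 0.76, adjusted p = 1.0e-04) and cheek wounds (log2 0.66, adjusted p = 0.00043) in limma's paired fit with Benjamini-Hochberg adjustment, and in abdomen wounds its log2 difference of 0.40 (adjusted p = 0.012) did not pass the study's wound threshold of 0.001. Degs2 made up 5.41% of the summed FPKM of both desaturases in unwounded abdomen, 1.39% at the back and 18% at the cheek. In wounds its share was 23.6%, 22.8% and 25.8%. Without cheek mouse 4 the cheek shares were 13.2% and 24.7%.

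The genes with the profile most like that of Degs2 were sought among 14413 tested genes by the root mean square difference of log2 values, each gene centred on its mean over the 24 libraries. They were Tmprss11g (0.66), a transmembrane serine protease, Klk6 (0.78) and Klk13 (0.85), which are secreted kallikrein proteases, Rptn (0.83), a cornified envelope protein, and Upp1 (0.86), a uridine phosphorylase. These genes were picked for their likeness to Degs2 over the same libraries, so shared features follow from the choice and support nothing further. Tmprss11g, the nearest, had unwounded means of 0.69 ± 0.21 FPKM at the abdomen, 0.23 ± 0.07 at the back and 1.76 ± 0.33 at the cheek. Its wound means were 8.52 ± 3.76, 8.36 ± 1.94 and 6.76 ± 1.88 FPKM (SD, n = 4). Among the other 9 barrier genes the nearest to Degs2 was Ugcg at 1.51 and the farthest Sptlc3 at 1.86.

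Among the 9 tested genes, the change that passed the wound threshold was in Ugcg (chr4:59189507-59222833). Its enzyme adds glucose to ceramide before it is loaded into lamellar granules. Unwounded abdomen libraries of mice 1 to 4 had 14.05, 19.60, 17.93 and 15.67 FPKM and their wounds 29.06, 23.78, 21.21 and 22.25 FPKM. Unwounded back libraries had 16.10, 12.55, 16.09 and 17.80 FPKM and back wounds 28.15, 28.09, 30.59 and 23.20 FPKM. Unwounded cheek libraries had 13.75, 12.94, 16.16 and 15.50 FPKM and cheek wounds 26.33, 26.05, 33.82 and 27.64 FPKM. Each wound library lay above all unwounded libraries of its site, and unwounded levels overlapped between sites. Among all genes tested, the 4 wound libraries lay above the 4 unwounded ones for 13.4% at the abdomen, 25% at the back and 16.7% at the cheek.

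Ugcg rose in back wounds by 0.80 ± 0.13 on the log2 scale (SE, adjusted p = 0.00039) and in cheek wounds by 0.94 ± 0.13 (adjusted p = 0.00018), in 4 of 4 mice each. In abdomen the difference was 0.51 ± 0.13 (adjusted p = 0.011), in the same direction in 4 of 4 mice but not past 0.001. The difference between the sites' responses did not pass the F test, so no site can be singled out. The back call was lost without back mouse 1, 2 or 3 (adjusted p = 0.0023, 0.0039 and 0.0032) and the cheek call without cheek mouse 1, 2 or 3 (adjusted p = 0.0011, 0.0016 and 0.0016). Relative to 5 basal keratinocyte genes of the same library, among which Krt14 itself rose in wounds (log2 1.54, 1.99 and 1.94 at the 3 sites), the differences were 0.45 in back (adjusted p = 0.0052) and 0.50 in cheek (adjusted p = 0.0021). This scale lowers the wound differences of all genes alike, and their medians on it are given below for Sptlc3.

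Counted over the 9 tested genes, 0 passed an adjusted p under 0.001 in abdomen wounds, 1 in back wounds and 1 in cheek wounds, and in limma an unadjusted p under 0.05 was reached by 4, 4 and 5 genes, beside 44.3%, 53.5% and 46.4% of all genes. Of all 14423 genes tested, 4.96%, 14.4% and 8.69% passed 0.001. The median log2 difference of the 9 genes was 0.02, 0.23 and 0.06, beside -0.01, 0.07 and 0.01 over all genes. At a looser threshold of 0.05, which 32.9%, 45.9% and 36.6% of all genes passed, 3 of the 9 passed at each site. Leaving Ugcg aside, the log2 differences of the tested genes ran from -0.47 to 0.58 over the 3 sites.

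**Figure D2:**
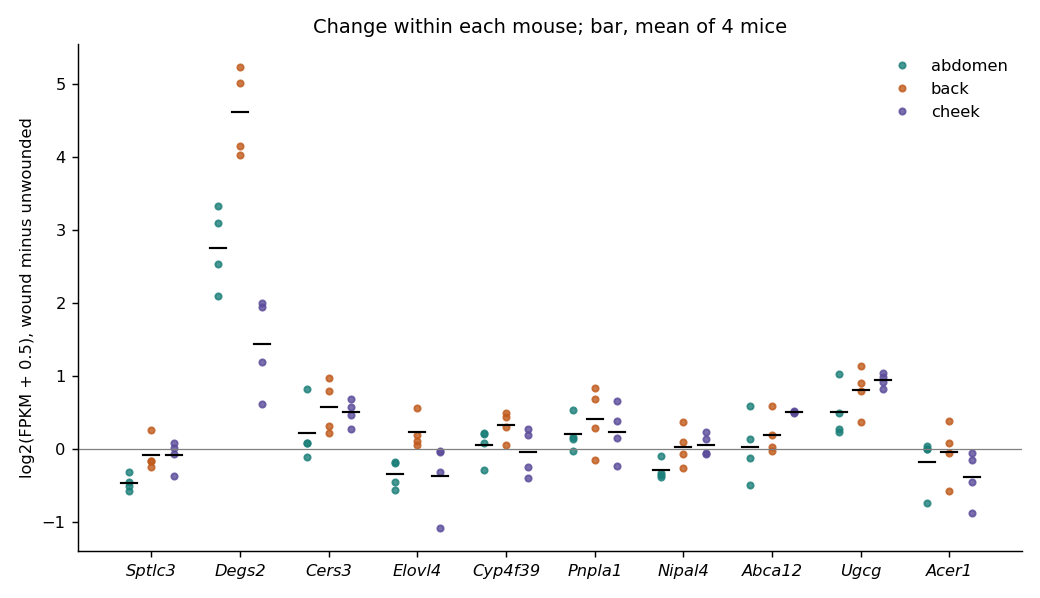
Change of the 10 genes within each mouse, as log2(FPKM + 0.5) of the wound minus that of unwounded skin, with 4 points per site and a black bar for their mean. Degs2 lies between 0.61 and 5.23 and Ugcg between 0.24 and 1.13, while the other 8 genes lie on both sides of 0.

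Sptlc3 is a subunit of serine palmitoyltransferase, which condenses serine with a fatty acyl group in the committed step of sphingolipid synthesis. It was lower in abdomen wounds at the looser threshold of 0.05, which 32.9% of all genes passed. Its unwounded abdomen libraries had 33.40, 47.13, 37.57 and 33.20 FPKM and the wounds 26.63, 31.32, 27.15 and 23.09 FPKM. All wound libraries lay below all unwounded ones, as for 11% of all genes, and 4 of 4 mice went down (log2 -0.47 ± 0.09, SE, adjusted p = 0.0029, not past 0.001). In back skin Sptlc3 averaged 22.9 ± 7.73 FPKM and in back wounds 21.3 ± 5.92 (SD, n = 4), and in cheek 27.0 ± 5.25 and 25.05 ± 1.92. Those differences were -0.08 (adjusted p = 0.49) and -0.09 (adjusted p = 0.50). With levels taken relative to the basal keratinocyte genes, Sptlc3 was lower at all 3 sites, by -0.70 in abdomen (adjusted p = 0.0011), -0.44 in back (0.010) and -0.52 in cheek (0.0029), on a scale where the median of all genes moved to -0.24, -0.28 and -0.42.

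The other long-chain subunits had wound differences above 0 at each site. Sptlc2 averaged 9.94 ± 0.99 FPKM in unwounded abdomen and 13.3 ± 1.38 in its wounds, 8.02 ± 0.34 and 15.1 ± 1.52 in back, and 8.95 ± 0.80 and 14.3 ± 0.85 in cheek (SD, n = 4). Sptlc2 rose in back wounds (log2 0.87, adjusted p = 7.0e-06) and cheek wounds (log2 0.65, adjusted p = 8.8e-05), and in abdomen the difference was 0.40 (adjusted p = 0.0034). Sptlc1, the subunit common to all forms of the enzyme, rose in back wounds (log2 0.70, adjusted p = 0.00056) and differed by 0.15 in abdomen (adjusted p = 0.37) and 0.35 in cheek (adjusted p = 0.040). Sptlc3 made up 48.7% of the summed FPKM of the 3 subunits in unwounded abdomen and 36.9% in its wounds, 42.5% and 29.2% in back, and 40.1% and 31.8% in cheek.

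Cers3, the ceramide synthase that uses ultra-long fatty acids, was higher in wounds of back and cheek at the looser threshold. Unwounded back libraries had 13.51, 9.13, 9.66 and 12.98 FPKM and back wounds 16.97, 18.42, 17.15 and 15.18 FPKM. Unwounded cheek libraries had 10.94, 11.30, 11.70 and 15.06 FPKM and cheek wounds 15.32, 17.08, 19.13 and 18.36 FPKM. Neither pair of groups overlapped, and wounds lay higher in this way for 25% of all genes at the back and 16.7% at the cheek. The log2 differences were 0.58 ± 0.15 (SE, adjusted p = 0.0076) and 0.50 ± 0.15 (adjusted p = 0.020). An adjusted p under 0.05 was reached by 45.9% and 36.6% of all genes at these sites. Without cheek mouse 4 the cheek change within mice averaged 0.58 ± 0.11 (SD, n = 3). In abdomen the groups overlapped, at 15.6 ± 2.73 and 18.6 ± 5.42 FPKM (SD, n = 4), with a difference of 0.22 (adjusted p = 0.29). Relative to the basal keratinocyte genes the differences were 0.23 in back (adjusted p = 0.11) and 0.07 in cheek (adjusted p = 0.61). The medians of all genes were lowered on that scale too, as given for Sptlc3.

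Cers3 was a small share of the ceramide synthases, 5.56% to 6.31% of their summed FPKM over the unwounded groups and 7.97% to 9.34% over the wound groups. Cers4 was the most abundant, at 39.7% to 50.9% over the 6 groups. Neither Cers2, Cers4, Cers5 nor Cers6 passed 0.001 in wounds of any site. Cers2 had log2 differences of 0.11 (adjusted p = 0.34), 0.31 (0.0089) and 0.33 (0.0078) in abdomen, back and cheek, Cers4 of -0.30 (0.13), 0.29 (0.11) and -0.31 (0.11), Cers5 of -0.45 (0.048), -0.03 (0.91) and -0.47 (0.038), and Cers6 of -0.01 (0.96), 0.37 (0.063) and 0.36 (0.081). Cers1 was too low to be tested.

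Elovl4, the elongase that makes the ultra-long fatty acids of acylceramides (chr9:83778692-83806305), had the highest level of the 10 genes in every library. Unwounded abdomen libraries had 630.65, 857.45, 895.70 and 600.58 FPKM and their wounds 554.17, 577.73, 652.82 and 526.82 FPKM. Unwounded back libraries had 442.88, 348.50, 346.07 and 448.92 FPKM and back wounds 475.85, 514.66, 396.11 and 464.41 FPKM. Unwounded cheek libraries had 429.41, 417.74, 602.01 and 475.54 FPKM and cheek wounds 416.70, 408.54, 283.70 and 379.92 FPKM. All 4 abdomen mice and all 4 cheek mice went down and all 4 back mice went up, and the wound and unwounded groups overlapped in abdomen and back. In cheek all wounds lay below all unwounded libraries, as for 15% of all genes, though the closest values differed by about 1 FPKM.

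None of these Elovl4 changes passed a threshold. The log2 difference was -0.35 ± 0.15 (SE, adjusted p = 0.097) at the abdomen, 0.23 ± 0.15 (adjusted p = 0.25) at the back and -0.37 ± 0.15 (adjusted p = 0.076) at the cheek. The cheek mean leaned on mouse 3, whose change was -1.08. The response in back minus that in abdomen was 0.58 (adjusted p = 0.24), and the F test over the 3 sites gave an adjusted p of 0.33. Relative to the basal keratinocyte genes, a scale that lowers the wound differences of all genes alike, the back difference turned to -0.12 (adjusted p = 0.58) as the median of all genes went from 0.07 to -0.28.

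Over the 9 genes, 0 passed the limma F test of a difference between the 3 wound responses, with 3 at an unadjusted p under 0.05 (Elovl4, Nipal4 and Sptlc3), which 12.9% of all genes reached. At an adjusted p under 0.05 the same test called 0.0208% of all genes. All 9 differences between the responses of back and abdomen were above 0, with a median of 0.29 on the log2 scale beside 0.09 over all genes, and 0 of the 9 passed 0.05 alone (0% of all genes), with 3 at an unadjusted p under 0.05 in limma, beside 15.2% of all genes. Each is the difference of back from abdomen in wounds minus that in unwounded skin. In unwounded skin all 9 lay below 0, as given further on, so these results are not separate. The differences between back and abdomen responses also share the abdomen mice with those between cheek and abdomen. There 6 of 9 were above 0 with a median of 0.29, and 0 passed (0.00693% of all genes), with 4 at an unadjusted p under 0.05 in limma, beside 11.9% of all genes.

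Among the other elongases, 0 of Elovl1, Elovl3, Elovl6 and Elovl7 passed 0.001 in wounds of any site. Elovl1 had log2 differences of -0.43 (adjusted p = 0.011), -0.29 (0.050) and -0.15 (0.30) in abdomen, back and cheek. Elovl7 had 0.29 (0.19), 0.80 (0.0020) and 0.37 (0.093), Elovl6 0.05 (0.76), 0.50 (0.0046) and 0.12 (0.48), and Elovl3 -0.02 (0.95), 0.69 (0.023) and -0.22 (0.46).

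Cyp4f39, the cytochrome P450 counterpart of the human enzyme that hydroxylates the end of ultra-long fatty acids, lies at chr17:32452697-32493320. It belongs to a family of related genes, and how reads were divided between them cannot be checked from FPKM. Unwounded abdomen libraries had 68.92, 77.04, 64.88 and 51.93 FPKM and their wounds 80.07, 62.81, 74.78 and 54.87 FPKM. Unwounded back libraries had 45.68, 34.47, 33.31 and 39.07 FPKM and back wounds 47.18, 48.69, 45.37 and 48.28 FPKM. Unwounded cheek libraries had 44.48, 36.45, 57.93 and 54.55 FPKM and cheek wounds 50.57, 44.24, 43.93 and 45.59 FPKM. Abdomen wounds lay above the wounds of back and cheek, which fell in a narrow band, while in unwounded skin abdomen lay above back and overlapped with cheek. The wound difference was 0.05 in abdomen (adjusted p = 0.77), 0.32 in back (adjusted p = 0.046, up in 4 of 4 mice) and -0.05 in cheek (adjusted p = 0.79). Relative to the basal keratinocyte genes which lowers all genes alike, the abdomen and back differences were below 0, at -0.18 and -0.03.

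Pnpla1, the transacylase that joins linoleic acid to the hydroxylated ceramide, had means between 7.94 ± 2.06 and 10.2 ± 3.58 FPKM in unwounded skin of the 3 sites and between 10.6 ± 1.69 and 11.6 ± 0.98 FPKM in wounds (SD, n = 4). Its wound differences were 0.20 in abdomen (adjusted p = 0.37), 0.41 in back (0.054) and 0.24 in cheek (0.28), each with 3 of 4 mice up. The highest of the 24 values, 15.18 FPKM, was the unwounded cheek library of mouse 4 with growing follicles. Without that mouse the cheek difference within mice averaged 0.39 ± 0.25 (SD, n = 3). The lowest value, 6.61 FPKM, was that of unwounded back mouse 2, whose growing-follicle keratins summed to 69.8 FPKM. Nipal4, a membrane protein whose loss causes ichthyosis, had 19.93, 25.80, 23.52 and 22.60 FPKM in unwounded abdomen and 18.50, 20.07, 17.89 and 17.91 FPKM in abdomen wounds, lower in 4 of 4 mice (log2 -0.29 ± 0.10, SE, adjusted p = 0.034, not past 0.001). In back and cheek its differences were 0.03 (adjusted p = 0.83) and 0.06 (adjusted p = 0.67). Relative to the basal keratinocyte genes both were below 0, at -0.32 (adjusted p = 0.024) and -0.38 (adjusted p = 0.0087). They lay near the medians of all genes on that scale, given above for Sptlc3, so they do not single out Nipal4.

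Abca12, the transporter that loads lipid into lamellar granules, was higher in cheek wounds at the looser threshold of 0.05, which 36.6% of all genes passed. Unwounded cheek libraries had 12.75, 13.12, 16.21 and 13.79 FPKM and cheek wounds 18.11, 19.00, 23.26 and 19.76 FPKM. The ratio was 1.42, 1.45, 1.43 and 1.43 in the 4 mice, and the log2 difference 0.50 ± 0.14 (SE, adjusted p = 0.014, not past 0.001). In abdomen 2 mice went up and 2 down (0.02, adjusted p = 0.91), and in back 3 went up and 1 down (0.19, adjusted p = 0.28). Relative to the basal keratinocyte genes the cheek difference was 0.07 (adjusted p = 0.60), on a scale where the cheek median of all genes was also lowered, as given for Sptlc3.

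Acer1, the alkaline ceramidase of the epidermis, which splits ceramide into sphingosine and a fatty acid, averaged 83.2 ± 15.8 FPKM in unwounded abdomen and 73.3 ± 12.5 in its wounds, 50.8 ± 11.8 and 48.4 ± 3.04 in back, and 80.5 ± 11.5 and 61.7 ± 9.91 in cheek (SD, n = 4). The cheek difference of -0.38 (adjusted p = 0.095), with 4 of 4 mice down, was the largest of the 3, beside -0.18 (adjusted p = 0.45) in abdomen and -0.04 (adjusted p = 0.86) in back. Relative to the basal keratinocyte genes the cheek difference was -0.82 (adjusted p = 0.0022). That p-value tests against 0, while the cheek median of all genes was itself below 0 on that scale, as given for Sptlc3. Acer1 held 73.3% to 80.0% of the summed FPKM of the 3 alkaline ceramidases over the 6 groups. Acer2 had wound differences of -0.15 (0.48), -0.09 (0.67) and -0.52 (0.020), and Acer3 of -0.42 (0.018), -0.23 (0.13) and -0.29 (0.077), with adjusted p in brackets for abdomen, back and cheek.

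**Figure D3:**
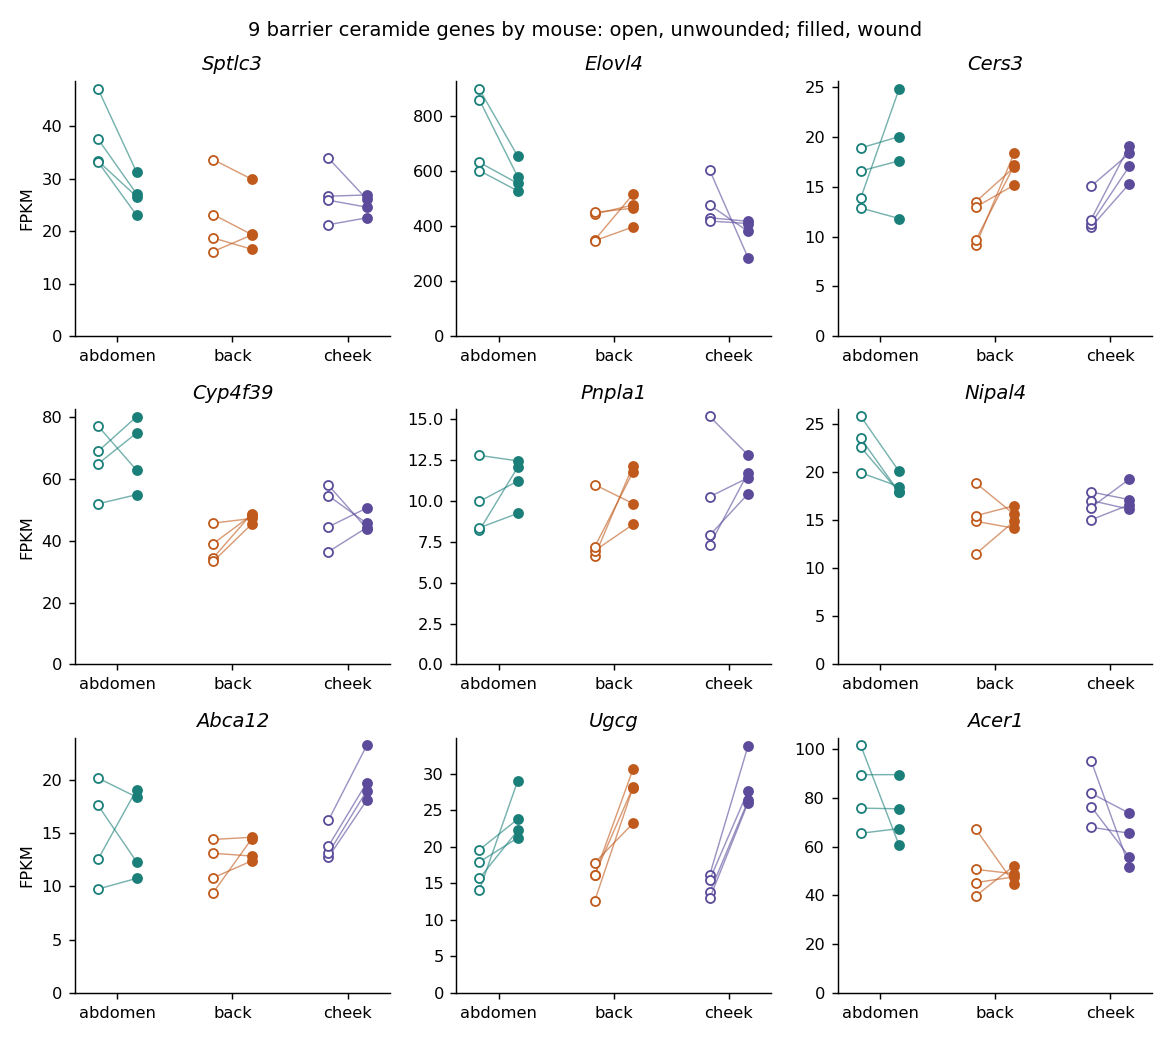
FPKM of the 9 tested genes in each mouse on linear axes from 0, with open circles for unwounded skin and filled circles for wounds, joined within a mouse. Ugcg wounds lie above unwounded skin at each site, and the abdomen means of Elovl4 and Cyp4f39 lie above those of back and cheek in both states, with overlap between abdomen and cheek in unwounded skin.

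In unwounded skin, 4 of the 9 genes were lower in back than in abdomen at an adjusted p under 0.05, beside 2.67% of all genes called in either direction and 2.14% called lower. Elovl4 averaged 746 ± 152 FPKM in abdomen and 397 ± 57.0 in back (SD, n = 4), a log2 difference of -0.90 ± 0.17 (SE, adjusted p = 0.016). Cyp4f39 averaged 65.7 ± 10.5 and 38.1 ± 5.61 FPKM (-0.77 ± 0.16, adjusted p = 0.027), Nipal4 23.0 ± 2.43 and 15.2 ± 3.01 FPKM (-0.60 ± 0.13, adjusted p = 0.035) and Acer1 83.2 ± 15.8 and 50.8 ± 11.8 FPKM (-0.71 ± 0.17, adjusted p = 0.048). The libraries of back lay below those of abdomen for Elovl4, Cyp4f39 and Nipal4, as for 10.7% of all genes, and Acer1 overlapped through back mouse 1 at 67.20 FPKM and abdomen mouse 4 at 65.55 FPKM.

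The 5 genes not called were also below 0 in this comparison, Sptlc3 at -0.75 (adjusted p = 0.077), Cers3 at -0.45 (0.14), Pnpla1 at -0.30 (0.45), Abca12 at -0.28 (0.42) and Ugcg at -0.10 (0.67). The median over the 9 was -0.60, beside -0.12 over all genes. With median-ratio scaling, which brought the median of all genes to 0.00, Elovl4 was at -0.77 (adjusted p = 0.029) and 2 of the 9 were called, and Ugcg turned to 0.03. The lowest unwounded value was that of back mouse 2 for 8 of the 10 genes and the highest that of abdomen mouse 2 for 7 of the 10. Leaving out abdomen mouse 2 or 3 or back mouse 2 or 3 left 0 of 9 called. The sebaceous markers moved with the site, with a sum of 412 to 608 FPKM in unwounded abdomen and 242 to 269 in back, a median log2 difference of -0.84 and 1 of 4 called lower. Awat1, Mc5r and Scd3 had differences of -1.30, -0.92 and -0.75, while Awat2 went slightly the other way at 0.10. The levels of all 4 were above 0 FPKM. The 5 skeletal muscle markers, all with levels above 0 FPKM, moved with the site too. Still, 0 of 5 were called, and the median log2 difference was 1.92. Their sum was 434 FPKM in abdomen mouse 2, 2293 in mouse 3, 12326 in mouse 4 and 13416 in mouse 1, and 11973 to 18888 FPKM in back. The library with the highest barrier gene levels, abdomen mouse 2, thus held the least muscle RNA, and back mouse 2 held the most muscle RNA of the back libraries and growing-follicle keratins at 69.8 FPKM, against 0.24 to 1.04 in the others. The part of sebaceous gland, muscle and follicles in the differences was not tested.

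Between unwounded cheek and abdomen 0 of the 9 genes passed 0.05, beside 2.57% of all genes, with 4 at an unadjusted p under 0.05 in limma, beside 19% of all genes. Elovl4 differed by -0.62 (adjusted p = 0.069) and Nipal4 by -0.45 (adjusted p = 0.091), from 23.0 ± 2.43 to 16.6 ± 1.23 FPKM with all cheek libraries lower, as for 4.49% of all genes. Between unwounded cheek and back 0 of the 9 passed, beside 1.05% of all genes, with 1 at an unadjusted p under 0.05 in limma, beside 21.6% of all genes. That gene was Acer1, with all 4 cheek libraries (68.07 to 95.42 FPKM) above the 4 back libraries (39.89 to 67.20 FPKM), as for 12.4% of all genes, and a difference of 0.68 (adjusted p = 0.087). The median of all genes was 0.14 in that comparison. Both counts were 0 also without cheek mouse 4.

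In wounds, Elovl4 and Cyp4f39 were lower in cheek than in abdomen, 2 of the 9 genes, beside 10.8% of all genes called and 3.32% called lower. Elovl4 averaged 578 ± 54.1 FPKM in abdomen wounds and 372 ± 61.1 in cheek wounds (SD, n = 4), a log2 difference of -0.65 ± 0.13 (SE, adjusted p = 0.014). Cyp4f39 averaged 68.1 ± 11.4 and 46.1 ± 3.08 FPKM (-0.55 ± 0.10, adjusted p = 0.013). For both genes all 4 cheek wounds lay below all 4 abdomen wounds, as for 5.4% of all genes, and both calls held in each of the 12 fits with a mouse left out, with adjusted p up to 0.040. Relative to the basal keratinocyte genes the differences were -0.60 (adjusted p = 0.16) and -0.50 (adjusted p = 0.13), so neither passed. The sebaceous markers were also lower, with sums of 207 to 399 FPKM in abdomen wounds and 97.2 to 138 in cheek wounds and 2 of 4 called, and their part was not tested.

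Back wounds differed from abdomen wounds in 1 of the 9 genes, beside 1.27% of all genes. Cyp4f39 averaged 47.4 ± 1.48 FPKM in back wounds (log2 -0.50 ± 0.10, SE, adjusted p = 0.042), with all back wounds below all abdomen wounds, as for 5.33% of all genes. The call was lost in 10 of 12 fits with a mouse left out, at adjusted p up to 0.12. Elovl4 differed by -0.32 (adjusted p = 0.23) and Acer1 by -0.58 (adjusted p = 0.052). Between cheek and back wounds 0 of the 9 passed, beside 2.5% of all genes, with 4 at an unadjusted p under 0.05 in limma, beside 26.1% of all genes. Abca12 had the largest difference at 0.54 (adjusted p = 0.080). Its cheek wounds, at 18.11 to 23.26 FPKM, all lay above its back wounds, at 12.40 to 14.62 FPKM, as for 17.2% of all genes.

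**Figure D4:**
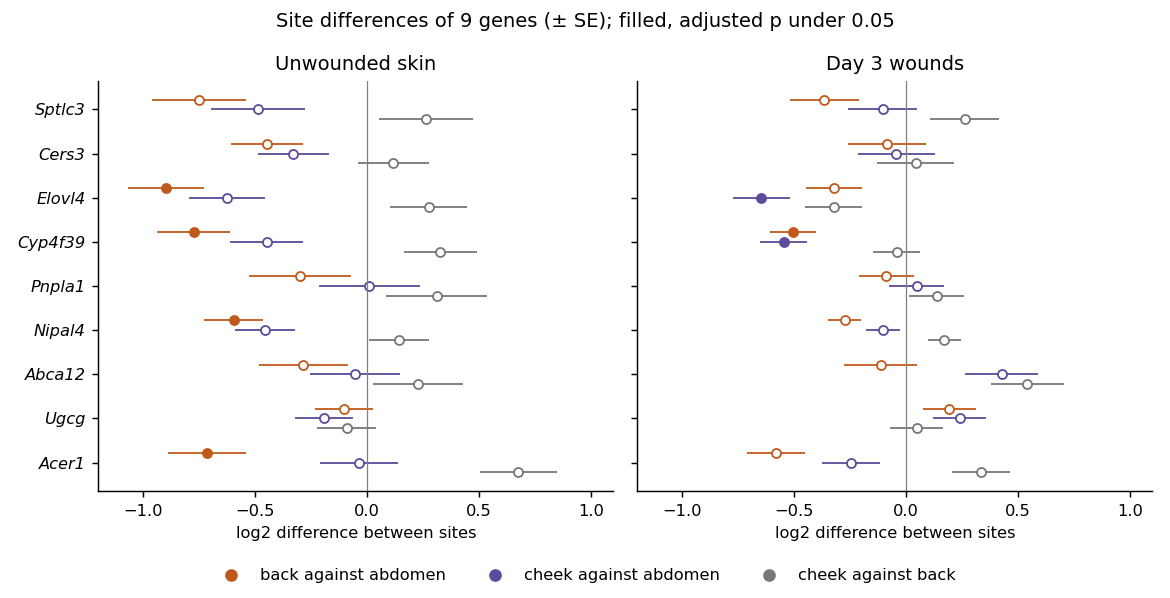
Log2 differences between sites (± SE) of the 9 tested genes in unwounded skin and in wounds, with filled circles where the adjusted p was under 0.05. Back against abdomen lies below 0 for all 9 genes in unwounded skin, and in wounds the filled circles are Elovl4 for cheek against abdomen and Cyp4f39 for cheek and for back against abdomen.

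The wider pathway was read from 47 further genes of sphingoid base synthesis, ceramide synthases and desaturases, fatty acid elongation, acylceramide and lipid envelope formation, head groups and transport, and processing and turnover. Of the 46 tested, 1 rose in abdomen wounds, 4 rose in back wounds and 3 rose in cheek wounds at an adjusted p under 0.001, and 0 fell. Of all genes tested, 3.92%, 10% and 6.5% rose at these sites. The pathway genes' median log2 differences were -0.05, 0.21 and -0.02. The gene common to the 3 sites, as were 3.31% of all genes tested, was Psap, whose product is cut into the saposins that help lysosomal enzymes degrade sphingolipids. Psap averaged 517 ± 44.4 FPKM in unwounded abdomen and 821 ± 143 in its wounds, 519 ± 67.9 and 1043 ± 86.0 in back, and 503 ± 40.6 and 951 ± 153 in cheek (SD, n = 4), with log2 rises of 0.66, 1.01 and 0.91 (adjusted p = 0.00055, 9.7e-06 and 3.3e-05).

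The other pathway genes that rose were Sptlc2 and Degs1 at both back and cheek, and Sptlc1 at the back. None of the 8 elongation genes, the 7 acylceramide and envelope genes or the 4 head group and transport genes passed 0.001 at any site. Psap is abundant in macrophages, and the sum of 5 macrophage markers moved with it, from 459 to 1003 FPKM in unwounded libraries to 1020 to 2195 in wounds. Of these 5 markers, 2, 4 and 4 rose in abdomen, back and cheek. Mrc1 went slightly the other way in abdomen wounds (log2 -0.11, adjusted p = 0.55 in limma's paired fit). The part of macrophages in the Psap rise was not tested. Of 6 transcription factors of the epidermal barrier, 2 rose in abdomen, 2 in back and 1 in cheek wounds, and 0 fell. The shares of all genes that rose were 3.92%, 10% and 6.5%. Ppard, a lipid-sensing nuclear receptor, rose at the 3 sites by 0.94, 0.93 and 0.79 (adjusted p = 0.00011, 4.5e-05 and 0.00023). Cebpb, a leucine zipper factor of differentiating keratinocytes, rose by 0.54 in abdomen and 0.51 in back (adjusted p = 0.00096 and 0.00069 in limma's paired fit). Its difference of 0.50 in cheek did not pass (adjusted p = 0.0012). Which cells of the punch the rises of Ppard and Cebpb came from was not tested.

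**Figure D5:**
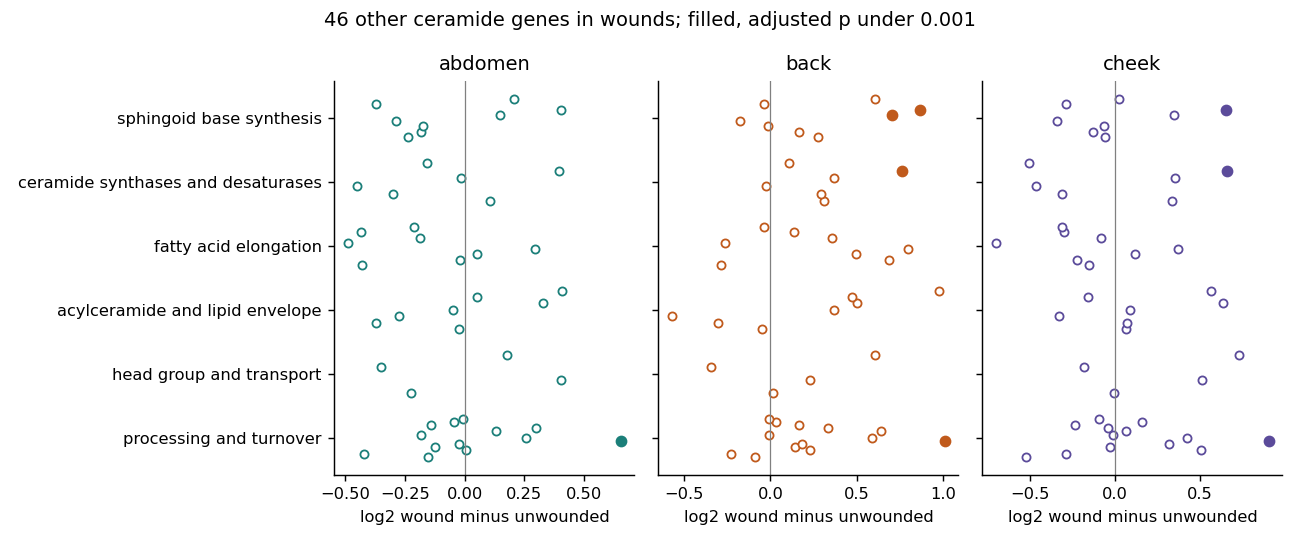
Log2 wound differences of the 46 other ceramide genes at each site, arranged by step of the pathway, with filled circles where the adjusted p was under 0.001. The filled circles, 1 at the abdomen, 4 at the back and 3 at the cheek, lie to the right of 0 and belong to sphingoid base synthesis, the desaturases and turnover.

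Between sites, the same 47 genes leaned toward abdomen. Of 45 tested in unwounded skin, 6 were lower in back than in abdomen and 0 higher, beside 2.14% and 0.53% of all genes, 43 of the 45 were below 0, and the median was -0.42 beside -0.12 over all genes. The 6 held 3 elongation genes, Hsd17b12 (-1.03, adjusted p = 0.0053), Hacd2 (-0.95, 0.010) and Hacd3 (-0.83, 0.011), which act in the cycle that extends fatty acids, and Cers4 (-0.99, 0.016). In wounds 13 were lower and 2 higher (Col4a3bp and Asah1) in cheek than in abdomen, beside 3.32% and 7.52% of all genes, and among the 13 were 5 of the 8 elongation genes. Hsd17b12 was at -0.46 (adjusted p = 0.012) there, beside Elovl4 at -0.65. These genes were named for passing the threshold, after their values were seen.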

How the data were processed

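RNA-seq was deposited for 24 libraries of CD1 mouse skin, 4 mice per site, grouped by the site, treatment and mouse number in the labels. The authors' provider mapped reads to mm10 with HISAT2 and Bowtie2 2.2.5 and quantified genes with RSEM 1.2.12. The authors deposited FPKM rounded to 2 decimals, with no scaling between libraries. A second table holds 18 columns with the authors' DESeq2 results (log2 fold changes, adjusted p-values) and was not used. FPKM carry no counts, so depth and counting error are unknown. Steps among low values gave relative depths of 0.914 to 1.07.

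Here log2(FPKM + 0.5) was fitted with limma 3.58.1 (R 4.3.3; trend and robust moderation) after removing genes that did not reach 0.5 FPKM in 4 or more of the fitted libraries, a filter all 10 genes passed. Wound effects per site were estimated from all 24 libraries in a model that held mouse as a factor, and sites were compared within the 12 unwounded or 12 wound libraries. p-values were adjusted by Benjamini-Hochberg over all tested genes. The thresholds of 0.001 for wounds and 0.05 between sites follow the study's counts of changed genes. The sites' responses were compared by a moderated F test at 0.05, a threshold set here. Mouse terms were used because both libraries of a mouse come from the same animal. Their deviations from group means correlated across genes with r between -0.030 and 0.533 (median 0.349).

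The genes and the lists were chosen with earlier results of these data known. Named genes were the 10, their closest paralogs, listed genes called at all 3 sites, and the 5 genes with profiles nearest to Degs2, besides listed genes said to be named afterwards. Marker lists covered basal, suprabasal and wound-edge keratinocytes, sebaceous gland, growing hair follicle, fibroblasts, neutrophils, macrophages, skeletal muscle and adipocytes. Flg, a suprabasal marker, was not analysed here. A further gene of the turnover list is not reported here. The lists not described in the report gave, in abdomen, back and cheek wounds, 2, 3 and 3 of 4 neutrophil markers higher, 0, 1 and 0 of 5 fibroblast markers lower, 0, 2 and 0 of 4 adipocyte markers lower, and 0 of 5 skeletal muscle markers called, with median log2 differences of -0.58, -2.20 and -1.66. The models were run on simulated data with 200 genes changed in back wounds and independent noise in each library. These data held no likeness between the libraries of a mouse, so they could not check the mouse terms. Alternatives were other pseudocounts, filters, scalings and model terms, a keratinocyte offset (the mean log2 of Krt5, Krt14, Trp63, Cdh1 and Col17a1), and each mouse left out in turn. Sequences and positions are from RefSeq on GRCm38.p6, and all 10 genes were matched by symbol.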

Additional observations from a re-analysis of the deposited data

Results flagged for a closer look

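The results below stood out by fixed criteria. Pnpla1 in the unwounded back library of mouse 1 was 11.01 FPKM, while the other 3 libraries of the group lay between 6.61 and 7.18 FPKM, a gap of 0.87 of the group's range. It was the 1 such library in 60 groups of 4 examined over the 10 genes, where chance gives about 1 in 20.

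Elovl4 moved in opposite directions between sites. All 4 back mice were higher in wounds and all 4 abdomen mice lower, a difference between the mean responses of 0.577 on the log2 scale (back minus abdomen, adjusted p = 0.24). All 4 cheek mice were lower too, a difference of -0.598 (cheek minus back, adjusted p = 0.67). Neither passed limma's test across all genes.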

How the results depend on the processing

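FPKM give no counts, so counting error could not be separated from differences between mice, and 4 mice per site limit what is called. Leaving out a mouse gave counts, of 9 genes, of 0 to 0 in abdomen wounds, 0 to 1 in wounds of back and cheek and 0 to 0 in the F test. Between unwounded sites they were 0 to 4 for back against abdomen, 0 to 1 for cheek against abdomen and 0 to 0 for cheek against back. Between wounds they were 0 to 2, 2 to 3 and 0 to 1 in the same order. The lowest counts for unwounded back against abdomen came without abdomen mouse 2 or 3 or back mouse 2 or 3. The highest counts came without abdomen mouse 4 or cheek mouse 3 for unwounded cheek against abdomen (1), without cheek mouse 1 for back against abdomen wounds (2), without abdomen mouse 1 for cheek against abdomen wounds (3) and without abdomen mouse 3 for cheek against back wounds (1).

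The wound threshold of 0.05 gave 3 genes at each site. The keratinocyte offset gave 0 in wounds of back and cheek, and quantile normalization 0 in back wounds. Unwounded back against abdomen had 2 calls with median-ratio scaling, 2 with quantile normalization, 1 with the offset and 1 with the mouse number as a replicate block across sites. Unwounded cheek against abdomen had 2 with all 24 libraries in the model, and cheek against back 1 with the offset and 1 with all 24 libraries. Back against abdomen wounds had 0 with no filter, median-ratio scaling, no trend or robust moderation, the offset, the block and all 24 libraries, and 2 with quantile normalization. Cheek against abdomen wounds had 0 with the offset. The cause of these changes was not tested. Without the replicate block the wound counts were 0, 1 and 1, as with it. Across sites, mice share only a number: same-numbered libraries correlated with r between -0.372 and 0.220. The Degs2 rise ranged over the settings other than leaving out a mouse from 2.53 to 2.88 at the abdomen, 4.2 to 5.07 at the back and 1.00 to 1.47 at the cheek.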

Other observations

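Unwounded cheek mouse 4, with growing follicle keratins, had the highest unwounded value of Degs2 (24.74 FPKM) and of Pnpla1 (15.18 FPKM), and the highest wound-edge keratin sum of the unwounded libraries (196 FPKM, against 58.5 to 114 in the other 11). Its Ugcg (15.50 FPKM), Abca12 (13.79 FPKM) and Nipal4 (16.32 FPKM) lay inside the range of the other unwounded cheek libraries, as did 7 of the 10 genes in all. Its Cers3 (15.06 FPKM) lay above theirs (10.94 to 11.70 FPKM). Unwounded back mouse 2, whose growing follicle keratins summed to 69.8 FPKM, had the lowest Degs2 (0.64 FPKM) and Pnpla1 (6.61 FPKM) instead.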
